A study of Saccharomyces cerevisiae with 6 samples.

Results

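The wild-type budding yeast (Saccharomyces cerevisiae) of this series, grown in rich medium and left untreated, is described here by the level of each transcript on its own 2 arrays. Those 2 arrays, called WT replicate 1 and WT replicate 2, are the wild-type members of a set of 6. The other 4 carry RNA of mutants of Tra1, a scaffold protein of histone acetyltransferase complexes, and are not used. The wild-type cells carried no named allele or transgene in the labels, and the sources used here do not name the strain, its mating type, its markers or the stage of the culture. The medium was YPD, a mixture of yeast extract, peptone and glucose. Total RNA of whole cells received its biotin label through in vitro transcription from the 3' end and was hybridised to an Affymetrix yeast array. The labels speak of duplicates and do not say whether the 2 arrays came from separate cultures, so the differences between them may be technical only.

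All 9275 probe sets of the 2 arrays were considered. Of these, 6504 read 1 named gene, and taking the highest probe set of each gene left 5656 genes in 1 order. Each level is a log2 value, so a step of 1 is a factor of 2. The percentile of a gene gives its place in that order, from near 0 for the lowest to near 100 for the highest. The signal of a probe set also depends on how well its own probes bind. The order of 2 different genes is therefore a description of these signals and not a ratio of molecules. No test between genes was made.

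Yeast given ample glucose ferments most of it to ethanol even in air. Glucose-rich cells are known to hold down genes for other carbon sources and for much of respiration, and to put a large part of their transcription into ribosomes and glycolytic enzymes. Sporulation genes are switched on in diploid cells that starve, and mating genes depend on which mating-type allele the cell carries. Bulk RNA averages over all cells of a culture. A transcript present in few cells and one present at a low level in every cell cannot be told apart here.

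The levels of the 5656 genes ran from 2.70 for AI4, an intron-encoded gene of the mitochondrial genome, to 15.26 for CCW12, a cell wall mannoprotein. The median gene stood at 7.29, and the middle 50% of genes lay between 5.99 and 8.58. The top 10% began at 9.92 and held 566 genes. The lowest 25% ended at 5.99 and held 1414 genes, and the lowest 10% ended at 4.66. When the log2 values were turned back to linear signal, the 566 genes of the top 10% carried 66.9% of the summed signal. The 57 genes of the top 1% carried 24.9%, while the lower 50% of genes together carried 6.19%. The top 10% took 67.0% on replicate 1 and 66.8% on replicate 2. RMA, which produced these values, scales arrays to each other. Close shares may therefore be largely fixed by the processing and do not measure how well the arrays agree.

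**Figure D1:**
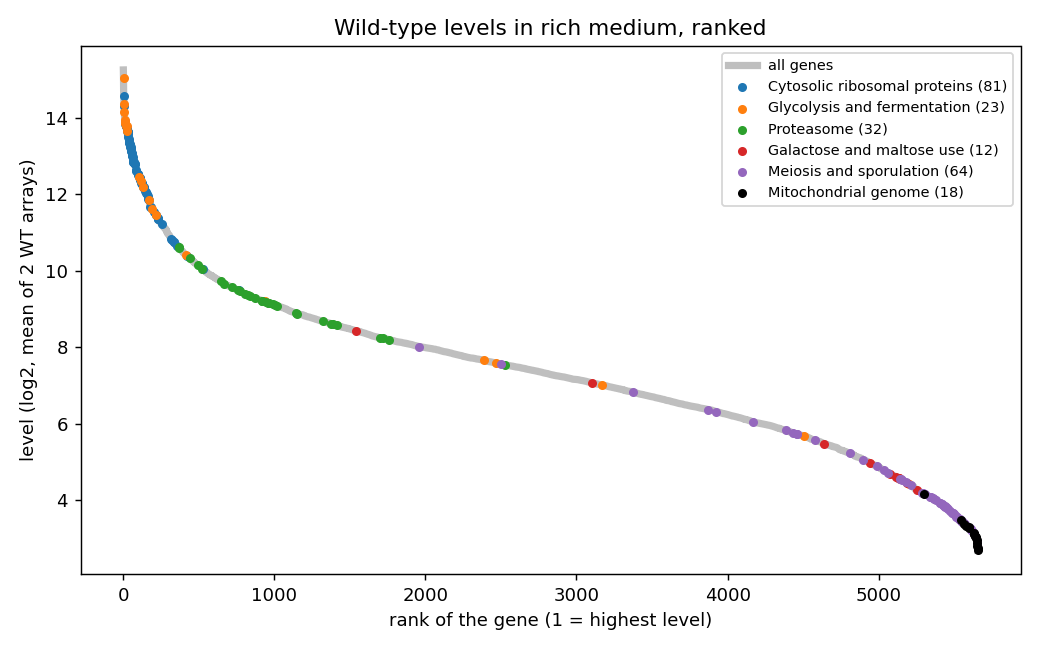
Level of each of the 5656 genes (log2, mean of the 2 WT arrays, vertical axis) against its rank (horizontal axis, 1 is the highest), with the members of 6 gene lists as coloured points. Cytosolic ribosomal protein and glycolytic genes crowd the steep left end, proteasome genes lie on the upper shoulder, and meiosis and mitochondrial-genome genes fill the right end.

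The 2 arrays placed genes in nearly the same order. Across genes, which are not independent replicates, Pearson's r was 0.995 and Spearman's rho 0.995. The difference between the arrays had an SD of 0.198 and a median size of 0.127, and 95 genes, or 1.68%, differed by more than 0.5. Of the 566 genes in the top 10% of replicate 1, 537 were also in the top 10% of replicate 2, and 524 of 566 were shared at the lower end. A typical gene moved by 1.56 percentile points between arrays. The SD of the difference was 0.196 among the highest 10% of genes and 0.229 among the lowest 10%, so the spread was similar across the scale.

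What changed along the scale was how crowded it was. Among the highest 10% of genes, 49 lay within 1 per-array SD of the group's median, against 340 in the most crowded group of this size and 137 among the lowest 10%. A gene of the highest 10% accordingly moved by a median of 0.318 percentile points between arrays, and a gene just below the median of all genes by 2.69. The values of the 2 arrays overlapped for 15 of the 24 neighbouring pairs among the 25 highest genes, for 18 of 19 pairs among the 20 lowest, and for 99.8% of all neighbouring pairs. The other 9 pairs among the 25 highest did not overlap. Ranking so many genes on the means of the same arrays leaves small steps between most neighbours.

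**Figure D2:**
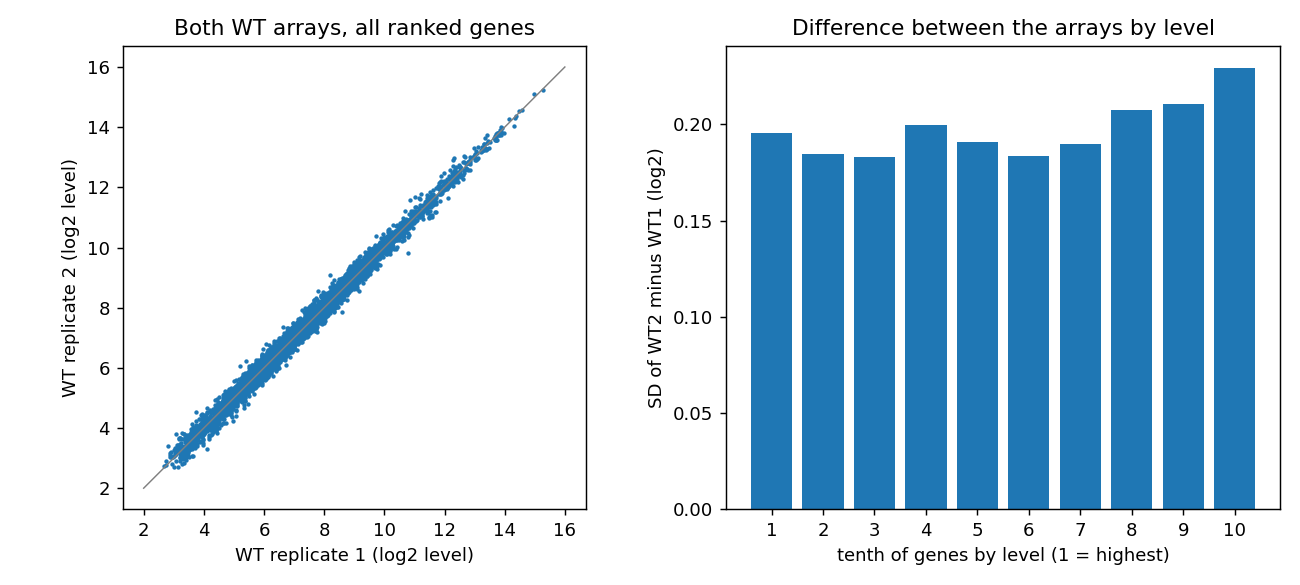
Left, the level of each ranked gene on WT replicate 2 against WT replicate 1 (log2), with the line of equality. Right, the SD of the difference between the arrays (log2) for 10 equal groups of genes by level, where 1 is the highest. The bars lie between 0.183 and 0.229.

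The 25 highest genes came mostly from 3 kinds of function. They held 9 genes of glycolysis and fermentation, 8 genes of cytosolic ribosomal proteins and 3 members of the list of cell surface genes. CCW12 led with 15.26 on replicate 1 and 15.25 on replicate 2. TDH3, the main glyceraldehyde-3-phosphate dehydrogenase, followed with 14.99 and 15.09. RPS26A, a protein of the small ribosomal subunit, had 14.57 and 14.58. ADH1, the dehydrogenase that makes ethanol, had 14.36 on both arrays. Each of these 4 genes differed between arrays by less than the gap between CCW12 and ADH1. Both were picked from the top of an order made from these same values. That gap was therefore partly fixed by the choice, and whether these genes differ was not tested.

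The remainder of the 25 included HYP2, which encodes the translation factor eIF5A, with 14.16 and 14.26, and YEF3, the fungal elongation factor eEF3, with 13.83 and 13.74. SED1, a stress-inducible cell wall protein, had 13.87 and 14.01. CWP2, another major mannoprotein of the wall, had 13.84 and 13.82. NCW1, a cell wall protein outside that list, had 13.85 on both arrays. One gene without a standard name, YDR524C-B, had 14.49 and 14.54. RDN25-1, a ribosomal RNA gene, had 13.89 and 13.75. Among the 100 highest genes, 44 encoded cytosolic ribosomal proteins, 10 belonged to glycolysis and fermentation and 9 to the cell surface, and 26 were read by probe sets whose identifier carries a suffix that the maker uses for probes outside its usual selection rules, in place of the plain type.

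The cytosolic ribosomal proteins, which together with ribosomal RNA form the translating ribosome, stood highest as a group. Their median level was 12.62, at percentile 98.5. Of the 81 genes read by a probe set of their own, 80 lay in the top 10%, which holds 10.01% of all genes, and the other, RPL15B, had 9.49 and 9.50 at percentile 86.5. Their 81 genes carried 18.6% of the summed linear signal. The list named 138 genes. Another 54 were read only by probe sets shared between genes, as happens for the nearly identical gene pairs of this family, and 3 by neither kind. The shared probe sets were also high: of 59 probe sets that read ribosomal protein genes alone, 55 reached the level of the top 10%, with a median of 12.63.

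Within the ribosomal proteins the levels still spanned 5.08 log2 units. At the upper end stood RPS26A and RPP1B, an acidic stalk protein, with 14.33 and 14.30 for the latter. At the lower end stood RPL15B, then RPL7B with 9.72 and 10.38, and RPL22B with 10.32 and 10.46. All 3 are members of a gene pair. Since a probe set can also bind the message of a near-identical copy, the split between copies of a pair is uncertain.

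On probe sets of their own, the other lists of the translation machinery had medians below that of the ribosomal proteins. Shared probe sets differed: the 3 that read several elongation genes had levels from 12.11 to 13.63, with a median of 12.96. The 11 measured elongation factors and ribosome-associated proteins had a median percentile of 96.6, and 8 lay in the top 10%. EGD2, a subunit of the nascent polypeptide-associated complex, had 12.53 and 12.68, and EFB1, the exchange factor eEF1B alpha, had 12.45 and 12.42. The 20 cytosolic tRNA synthetases had a median percentile of 93.7 with 13 in the top 10%, from FRS1 (phenylalanine) with 11.64 and 11.46 down to GLN4 (glutamine) with 8.42 and 8.28. The 24 initiation factors with a probe set of their own had a median percentile of 88.0 with 9 in the top 10%. SUI1, or eIF1, led these 24 with 10.65 and 10.66, and TIF4632, a minor form of eIF4G, was lowest with 6.53 and 6.48. The 1 probe set shared by 2 other initiation genes was higher, at 12.27.

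Factors that build ribosomes stood lower than the ribosomal proteins they handle. The 63 ribosome biogenesis genes had a median level of 8.91 at percentile 79.9, with 13 in the top 10% and 57 in the upper 50%. NOP58, a core protein of C/D box small nucleolar ribonucleoproteins, had 13.41 and 13.29, though that value comes from a probe set whose companions read lower. GAR1 and NHP2, core proteins of the H/ACA class, had 11.54 on both arrays and 11.46 and 11.55. FAF1, a factor for 18S rRNA maturation, was lowest with 6.07 and 6.41. The 31 subunits of RNA polymerases I, II and III had a median percentile of 81.9. RPA190, the largest subunit of polymerase I, had 10.41 and 10.50 on the highest of its 7 probe sets, and the lowest had a mean of 3.16. RPO21, the largest subunit of polymerase II, had 10.27 on both arrays. RPC17, a subunit of polymerase III, was lowest with 5.65 and 5.55.

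The mitochondrial ribosomal proteins, which are encoded in the nucleus and translate the few mitochondrial messages, stood apart from the cytosolic ones. Their 72 genes had a median level of 8.15 at percentile 68.0, and 1, IMG1 with 10.14 and 10.32, lay in the top 10%. They were compact, with a middle 50% between percentiles 60.3 and 74.0, against 97.3 to 99.2 for the cytosolic set.

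**Figure D3:**
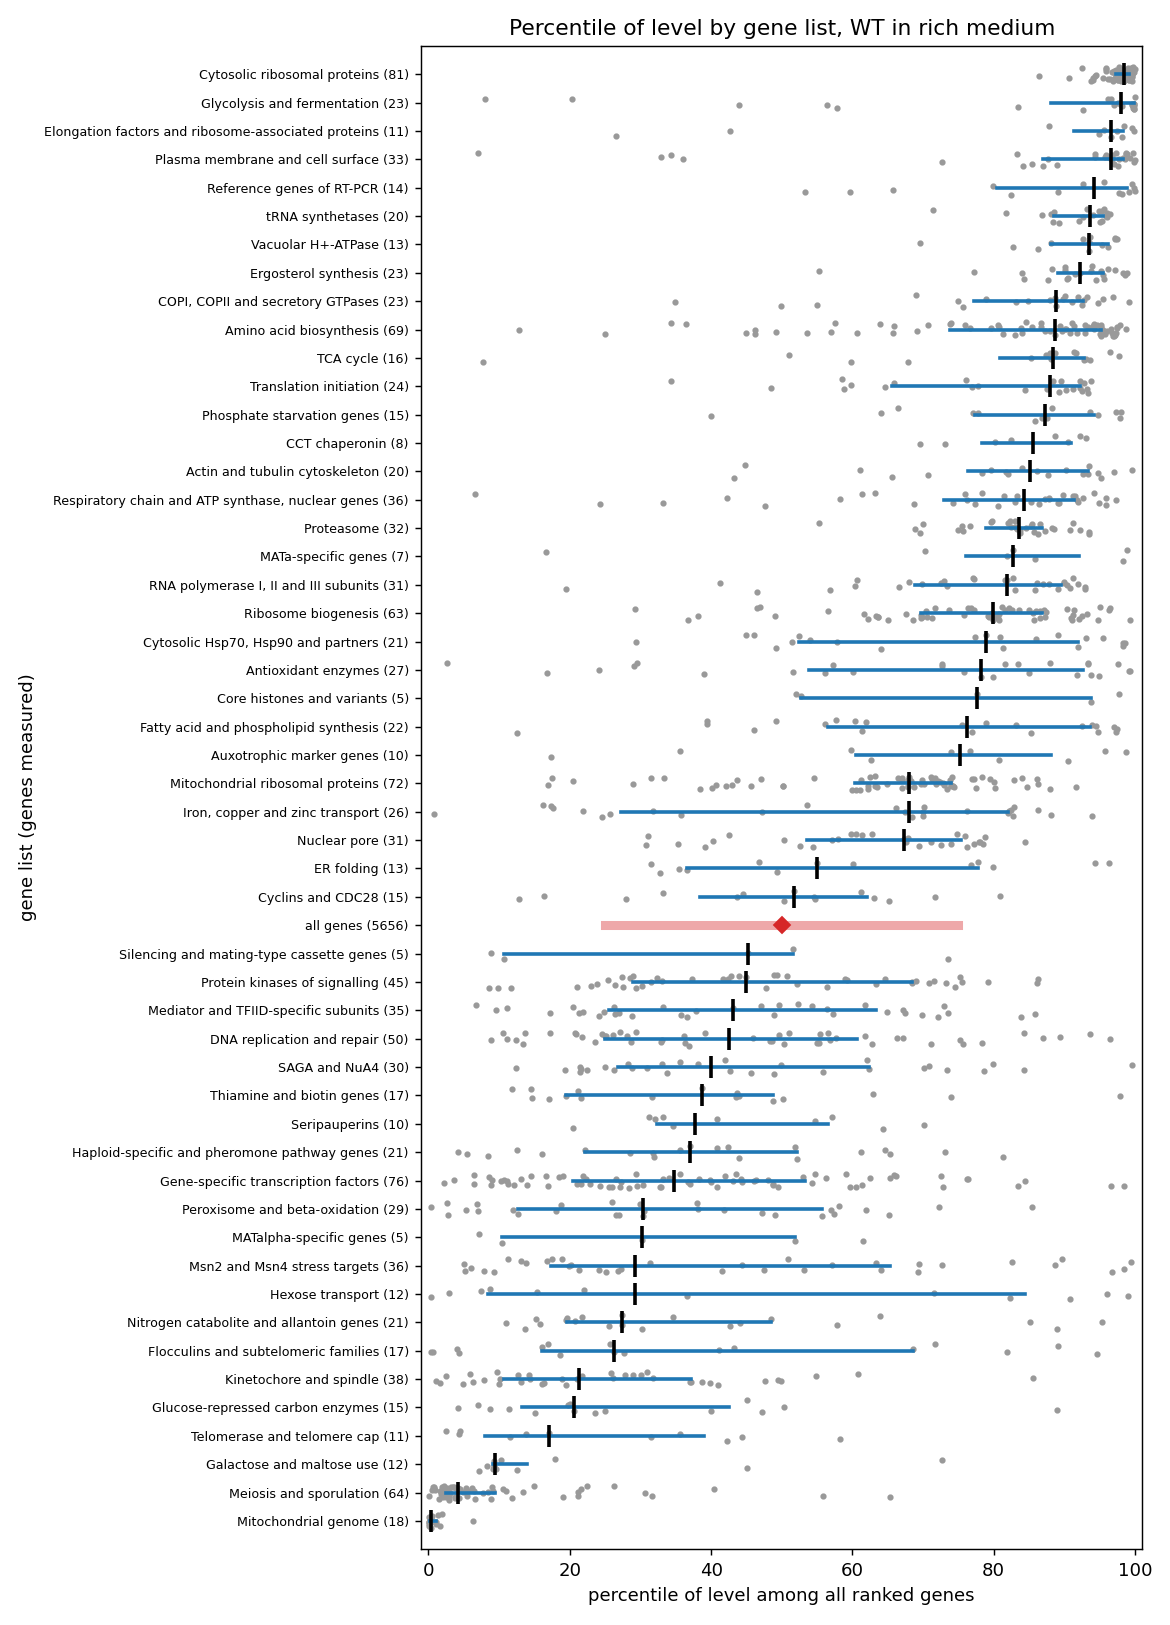
Percentile of level among the 5656 genes (horizontal axis) for each measured member (grey points) of 51 gene lists, ordered by median (black bar), with the middle 50% of members as a blue line and all genes in red. Medians ran from percentile 98.5 for cytosolic ribosomal proteins to 0.354 for the mitochondrial genome.

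Glycolysis and fermentation ranked next to the ribosome, with a median level of 12.36 at percentile 98.0. Of its 23 measured genes, 17 lay in the top 10% and 2 in the lowest 25%, and together they carried 6.41% of the summed signal. The main forms of the enzymes from aldolase down to pyruvate kinase all had means of at least 13.78, with TDH3 above the others. CDC19, the main pyruvate kinase, had 14.30 and 14.04. PGK1, phosphoglycerate kinase, had 13.91 and 13.96. FBA1, aldolase, had 13.99 and 13.79. The enolases ENO1 and ENO2 had 13.86 and 13.90, and 13.88 and 13.86. A probe set can also bind the message of a close copy. The split between ENO1 and ENO2, or between TDH3 and its copies, is therefore uncertain. The 3 probe sets that read several genes of this list had levels from 14.1 to 14.3. GPM1, phosphoglycerate mutase, had 13.83 and 13.75, and TPI1, triosephosphate isomerase, had 13.76 and 13.80. TDH1, a minor form of glyceraldehyde-3-phosphate dehydrogenase, had 12.56 and 12.35. PGI1, phosphoglucose isomerase, had 12.32 and 12.39, and the phosphofructokinase subunits PFK2 and PFK1 had 11.90 and 11.79, and 11.41 and 11.50.

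The members of glycolysis that stood low were the minor forms of enzymes whose main form stood at the top. PDC1, the main pyruvate decarboxylase, had 13.73 and 13.57, whereas PDC5 had 7.06 and 6.97 and PDC6 had 4.44 and 4.42. PYK2, the pyruvate kinase that glucose represses, had 5.70 and 5.66, which is 8.60 and 8.38 below CDC19 on the respective arrays. Among the alcohol dehydrogenases, ADH3 of the mitochondrion had 11.73 and 11.50, and ADH4, ADH5 and ADH2 lay close together with means between 7.31 and 7.67. ADH2 is the form that oxidises ethanol and is repressed by glucose. Of the 3 kinases that phosphorylate glucose, HXK2 had 12.21 and 12.18, GLK1 had 10.44 and 10.42, and HXK1 had 9.17 and 9.25. No 2 of these 3 overlapped between arrays, whose difference had an SD of 0.198 over all genes.

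**Figure D4:**
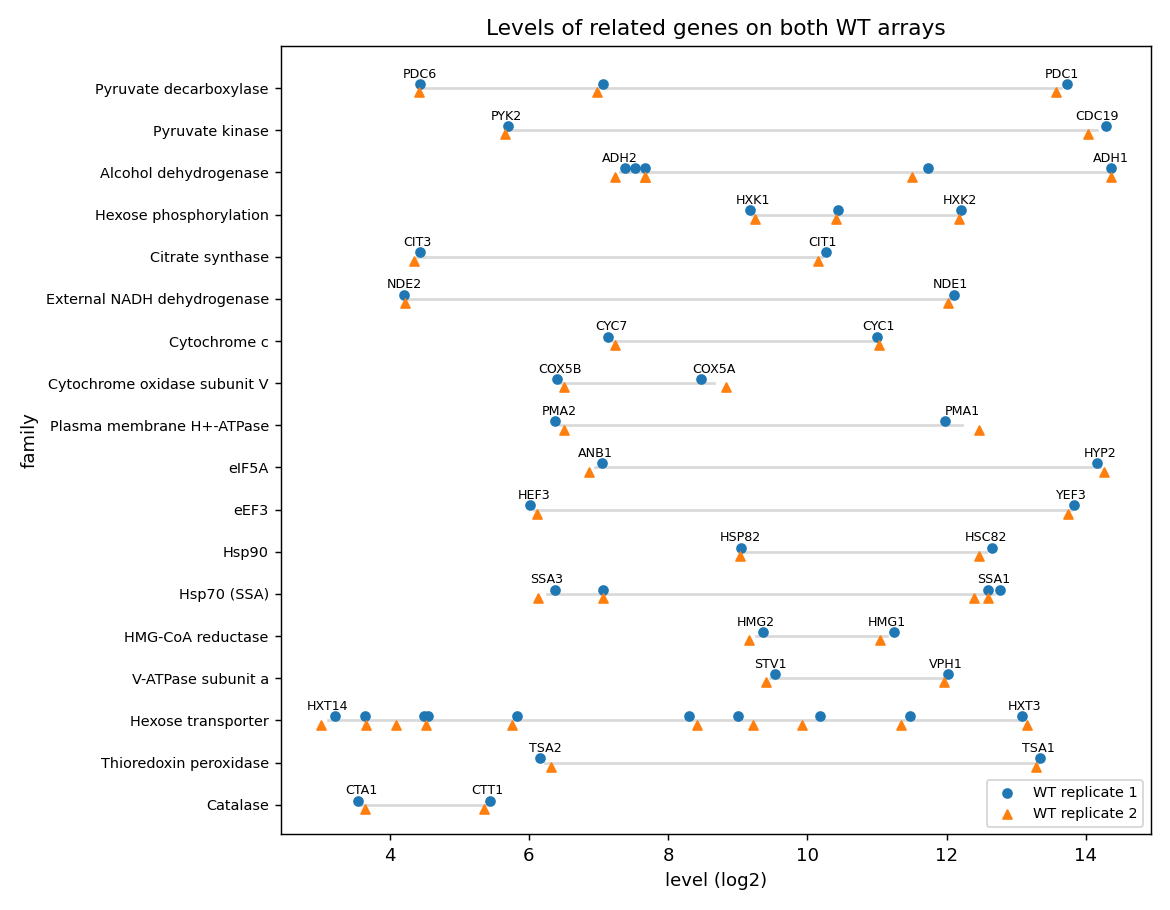
Level of related genes (log2, horizontal axis) on WT replicate 1 (circles) and WT replicate 2 (triangles), 1 row for each of 18 families, with the highest and lowest member named. The gap within a family reached 10.01 log2 units for the hexose transporters, while the 2 arrays of a gene lay close together.

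The same separation of a high and a low form was seen in other families. In translation, HYP2 stood 7.25 above ANB1, the eIF5A form made under low oxygen, which had 7.05 and 6.86, and YEF3 stood 7.71 above HEF3, which had 6.02 and 6.12. At the plasma membrane, PMA1, the essential proton pump, had 11.98 and 12.46, and PMA2 had 6.37 and 6.51. In the mitochondrion, NDE1, an external NADH dehydrogenase, had 12.10 and 12.02, and NDE2 had 4.21 and 4.22. CYC1, the aerobic cytochrome c, had a mean of 11.02, and CYC7 had 7.13 and 7.24. COX5A and COX5B, the normoxic and hypoxic forms of 1 cytochrome oxidase subunit, lay closer, with 8.48 and 8.83 against 6.40 and 6.50. Each of these pairs was read by 1 probe set per gene. In none did the arrays of the 2 genes overlap. The pairs were picked with their values in view, so this was largely fixed by the choice. How much of each gap belongs to the probes was not tested.

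Hexose transporters, which bring glucose into the cell, spanned 10.01 log2 units. HXT3, a low-affinity transporter, had 13.09 and 13.15. HXT1, which high glucose induces, had 11.47 and 11.35. HXT2, of higher affinity, had 10.18 and 9.93. HXT7 and HXT6, high-affinity carriers with nearly identical sequences, had 9.01 and 9.21, and 8.29 and 8.41. HXT4 lay at 5.83 and 5.76, and HXT5, HXT8, HXT10 and HXT14 were all in the lowest 10%, with means from 4.51 down to 3.11. The glucose sensors RGT2 and SNF3 had 6.61 and 6.65, and 5.25 and 5.28. Of the 18 genes listed, 12 had a probe set of their own, and the 3 probe sets that read several transporters at once were low, between 3.78 and 4.82.

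Genes for carbon sources other than glucose stood low. Among 15 enzymes and carriers known to be repressed by glucose, 10 were in the lowest 25% and the median percentile was 20.7. FBP1, the fructose-1,6-bisphosphatase of gluconeogenesis, had 3.96 and 3.84. MLS1 and ICL1, enzymes of the glyoxylate cycle, had 4.51 on both arrays and 5.55 and 5.70. PCK1, the first committed enzyme of gluconeogenesis, stood higher at 7.22 and 6.94, and MDH2, cytosolic malate dehydrogenase, was the exception at 9.78 on both arrays, percentile 89.0. Of 12 genes for galactose and maltose use, 10 were in the lowest 25% and the median percentile was 9.43. The galactose enzymes GAL1, GAL10 and GAL7 had 4.31 and 4.25, 4.54 and 4.59, and 4.65 and 4.53. The activator GAL4 had 4.77 and 4.62, and its inhibitor GAL80 had 8.56 and 8.31.

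Genes of respiration were not low. The 16 genes of the TCA cycle had a median percentile of 88.4, led by IDH2, a subunit of isocitrate dehydrogenase, with 12.28 and 12.18, and ACO1, aconitase, with 11.70 and 11.44. CIT1, the main citrate synthase, had 10.27 and 10.15, and CIT3 was lowest with 4.44 and 4.36. The 36 nuclear genes of the respiratory chain and ATP synthase had a median percentile of 84.3 with 10 in the top 10%. ATP1, the alpha subunit of the ATP synthase, had 11.32 and 11.38, and QCR7 of complex III had 10.68 and 10.88. The internal NADH dehydrogenase NDI1 had 5.87 and 6.05. RIP1, the Rieske protein of complex III, was among the 5 genes that differed most between the arrays, with 8.20 and 9.08.

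Of the 51 lists, the cell surface had the highest median outside protein synthesis and glycolysis. Its 33 genes had a median percentile of 96.5, with 22 in the top 10%. Below CCW12, SED1 and CWP2 stood ECM33, a GPI-anchored wall protein, with 13.34 and 13.30, and GAS1, a glucan-remodelling enzyme, with 12.85 and 12.77. Wall genes known for expression without oxygen were among the low ones: DAN1 had 4.41 and 4.10, DAN4 had 6.67 and 6.33 and TIR4 had 6.54 and 6.67.

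Membrane and organelle genes followed. All 23 genes of ergosterol synthesis, the sterol pathway of fungi, were in the upper 50% and 17 in the top 10%. ERG25, ERG2, ERG11 and ERG3, which act late in the pathway, had 12.85 and 13.00, 12.70 and 12.65, 12.47 and 12.66, and 11.85 and 12.03. HMG1, the main HMG-CoA reductase, had 11.24 and 11.04, and its partner HMG2 had 9.36 and 9.17. ERG12, mevalonate kinase, was lowest with 7.61 and 7.47. The 22 genes of fatty acid and phospholipid synthesis were more spread out. ACC1, acetyl-CoA carboxylase, had 12.11 and 12.13, and OLE1, the fatty acid desaturase, had 11.93 and 11.91. INO1, which makes inositol and is repressed when inositol is supplied, had 5.10 and 4.84.

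The vacuolar proton pump and the secretory pathway were also high. The 13 measured V-ATPase genes had a median percentile of 93.5. VMA3, a subunit of its membrane ring, had 11.88 and 12.38, and VPH1, the form of subunit a found at the vacuole, had 12.01 and 11.96 against 9.53 and 9.41 for STV1, the Golgi and endosome form. The 23 genes of COPI, COPII and secretory GTPases had a median percentile of 88.8. ARF1, the GTPase that recruits COPI coats, had 13.12 and 13.33, and SEC61, the pore of the ER translocon, had 11.25 and 11.17. SEC23, a COPII coat subunit, lay near the middle with 7.33 and 7.24.

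The proteasome, which degrades ubiquitin-tagged proteins, was an even group in the upper part of the scale. All 32 genes lay in the upper 50%, 5 in the top 10%, and the SD of their levels was 0.694, against 2.06 over all genes. The highest were RPN2 with 10.61 and 10.62 and PRE6 with 10.52 and 10.70, and the lowest was RPT2 with 7.54 and 7.55. The 8 subunits of the CCT chaperonin, which folds actin and tubulin, ran from CCT2 with 10.55 and 10.46 to CCT7 with 8.45 and 8.03. The products meet in equal numbers in each complex, yet these signals differed by up to 3.07 and 2.27 log2 units within it. The 31 nuclear pore genes were similarly even, with an SD of 0.803, but stood lower, at a median percentile of 67.4 with none in the top 10% and none in the lowest 25%.

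Chaperones split by form. The constitutive Hsp70s SSA1 and SSA2 had 12.77 and 12.59, and 12.60 and 12.40, whereas the stress forms SSA4 and SSA3 had 7.06 on both arrays and 6.38 and 6.13. The constitutive Hsp90 gene HSC82 had 12.66 and 12.46, and the stress-inducible HSP82 had 9.04 and 9.03. As a probe set can also bind the message of a close copy, the split between forms is uncertain. HSP104, the disaggregase, had 7.59 and 7.24, and HSP26 had 7.01 and 7.24. In the ER, PDI1, protein disulphide isomerase, had 11.62 and 11.40 and KAR2, the ER Hsp70, had 10.97 and 10.64, while the median of that list was percentile 55.05.

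Genes of the stress response were spread over the whole scale. Of 36 targets of Msn2 and Msn4, the activators of the general stress response, 15 were in the lowest 25%, 14 in the upper 50% and 3 in the top 10%, at a median percentile of 29.3. Those 3 were HOR7, a small membrane protein, with 13.50 on both arrays, HSP12, a membrane-associated heat shock protein, with 12.51 and 12.69, and YGP1, a secreted glycoprotein, with 11.60 and 11.75. At the other end were SIP18 with 3.89 and 4.15 and GRE1 with 4.05 and 4.03, both known from osmotic and desiccation stress. The 27 antioxidant enzymes had a median percentile of 78.2, with 21 in the upper 50%. The peroxiredoxins TSA1 and AHP1 had 13.34 and 13.29, and 13.37 and 13.23, and SOD1, the cytosolic superoxide dismutase, had 12.23 and 12.15. The catalases were low: CTT1 had 5.44 and 5.36, and the peroxisomal CTA1 had 3.54 and 3.64.

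Amino acid synthesis genes stood high in this peptone-based medium. Of 69 genes, 32 were in the top 10% and 2 in the lowest 25%, at a median percentile of 88.7. HOM6 of threonine and methionine synthesis had 12.43 and 12.18, GLN1, glutamine synthetase, had 12.03 and 12.15, and BAT1, a branched-chain aminotransferase, had 12.03 and 12.11. The 4 lowest members belong to sulphur assimilation and methionine synthesis: MET2 had 4.98 and 5.05, MET16 had 6.01 and 5.97, MET3 had 6.67 and 6.35 and MET10 had 6.62 on both arrays. GCN4, the activator of amino acid synthesis, which is known to be controlled mainly at translation, had the highest level of 76 gene-specific transcription factors, 12.65 and 12.59.

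Nutrient uptake genes differed by nutrient. The 15 measured genes of the phosphate system had a median percentile of 87.2. PHO84, the high-affinity phosphate transporter, had 12.38 and 12.34, PHO5, the secreted acid phosphatase that phosphate represses, had 11.04 and 10.89, and PHO3, a constitutive relative whose sequence is very close to that of PHO5, had 12.41 and 12.27. PHO89, a sodium-coupled carrier, was lowest with 6.72 and 6.89. Nitrogen catabolite and allantoin genes had a median percentile of 27.4. DAL3, DAL7 and PUT1, which use poor nitrogen sources, had 4.90 and 5.32, 5.17 and 5.34, and 4.93 and 4.63, while CAR1, arginase, had 11.19 on both arrays. The 26 measured genes of iron, copper and zinc transport were spread from FET3, the multicopper oxidase of iron uptake, with 10.75 and 10.62, to FRE5 with 3.22 and 3.23.

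The middle of the scale held genes of many kinds. The 10 genes nearest the median were CWC2, MYO3, TGL4, NPL4, NVJ1, GRH1, NDD1, YNG2, ARE2 and CBP6, with means between 7.29 and 7.30. They have no common function: CWC2 is a splicing factor, MYO3 a type I myosin, TGL4 a lipase, NPL4 a partner of Cdc48 and NDD1 a coactivator of mitotic genes. The 15 cyclins and partners had a median percentile of 51.7 with none in the top 10%. CLN3, the cyclin that starts the cycle, had 9.06 and 8.96, the kinase CDC28 had 8.23 and 8.52, and CLB6 and CLB2 were lowest with 5.04 and 4.98, and 5.23 and 5.52. A periodic gene is averaged over all stages in such a culture. The 45 measured signalling kinases had a median percentile of 45.0 and none in the top 10%. They were led by the MAP kinases HOG1, with 9.53 and 9.41, and SLT2, with 9.35 and 9.53. The DNA damage kinase RAD53 had 5.02 and 4.77.

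Other parts of the transcription machinery had medians below the 81.9 of the polymerases. The median percentile was 43.1 for 35 Mediator and TFIID-specific subunits, 40.05 for 30 SAGA and NuA4 subunits and 34.8 for 76 gene-specific factors. The middle 50% of these 3 lists largely coincided, at 25.5 to 63.3, 26.8 to 62.3 and 20.5 to 53.3. SPT15, the TATA-binding protein, had 9.10 and 9.37. TRA1 had 8.41 and 8.11, at percentile 70.1, on the highest of its 13 probe sets, and the lowest had a mean of 3.76. GCN5, the acetyltransferase of SAGA, had 5.93 and 6.05, and SGF29 had 5.01 and 4.92. ACT1, actin, which is also a NuA4 subunit, was that list's sole member in the top 10%, with 13.71 and 13.68. Of the specific factors, 25 were in the lowest 25%. These included CAT8, the activator of gluconeogenesis, with 3.96 and 3.62, and DAL80, a nitrogen repressor, with 3.37 and 3.67. Besides GCN4 the only other factor in the top 10% was HAP1, the heme-dependent activator, with 11.66 and 11.57. Its probe sets disagreed: a second had 11.16 and 11.09, and the third, of the plain type, had 6.91 and 6.84.

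Lists of genome maintenance had medians below that of all genes. The 50 measured replication and repair genes had a median percentile of 42.5. The ribonucleotide reductase subunits RNR4 and RNR2 had 11.45 and 11.61, and 10.78 and 10.49, and RAD55 of recombination had 4.49 and 4.56. Kinetochore and spindle genes had a median percentile of 21.3, with 20 of 38 in the lowest 25%. SKP1, which also serves in ubiquitin ligases, was highest with 9.22 and 9.54, and CTF19 was lowest with 3.29 and 3.31. The 11 genes of telomerase and the telomere cap had a median percentile of 17.1. EST2, the catalytic subunit, had 3.57 and 3.56, and RIF2 and TEN1 had 3.94 and 3.95, and 3.86 and 3.97. The 29 measured peroxisome genes had a median percentile of 30.4, with 8 in the upper 50% and 10 in the lowest 25%. PEX11, which acts in peroxisome division, was highest with 9.41 and 9.32. POX1 and DCI1 of fatty acid beta-oxidation, which oleate induces, had 4.23 and 3.92, and 3.03 and 3.17.

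Markers of mating type were present for 1 type above the other. The a-factor genes MFA2 and MFA1 had 13.06 and 12.92, and 12.49 and 12.47. STE2, the receptor of a cells for alpha factor, had 9.34 and 9.47, and the a-cell genes AGA2, BAR1 and STE6 lay between 8.15 and 9.19. ASG7 was low, with 5.53 and 5.25. Of the alpha-specific genes, STE3, the receptor for a-factor, had 4.27 and 4.31, MF(ALPHA)2 had 4.77 and 4.65 and MF(ALPHA)1 had 6.31 and 6.29. SAG1, the alpha agglutinin, was not low, with 7.93 and 7.75. In all, 2 of the 5 measured alpha-specific genes lay in the upper 50%, against 6 of the 7 a-specific genes. The labels give no mating type, and none is assigned here. The 21 haploid-specific and pheromone pathway genes had a median percentile of 37.0, with 6 in the lowest 25% and 7 in the upper 50%. The lowest were FIG1 with 3.96 and 3.84, FUS2 with 4.05 and 4.11 and FUS1 with 4.52 and 4.44, which act in mating. The MAP kinase FUS3 had 6.84 and 7.20. STE4, the beta subunit of the pheromone G protein, had 9.11 and 8.96.

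Genes often used as markers in laboratory strains differed widely. LEU2 had 12.79 and 12.84, although its 3 probe sets ran from 4.80 to 12.82. MET17 had 11.41 and 11.22, TRP1 8.85 and 9.10, HIS3 8.60 and 8.76 and LYS2 8.55 and 8.47. URA3 was lowest with 5.35 and 5.53, at percentile 17.4. Whether any of these genes is deleted, replaced or carried on a plasmid in this strain is not stated in the sources used here. Genes in common use as references for RT-PCR were also spread over the scale: TDH3 and ACT1 were near the top, ALG9 had 9.13 and 9.10, TAF10 8.84 and 8.97, and UBC6 7.55 and 7.93, all above the median gene.

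Of the lists of nuclear genes, meiosis and sporulation stood lowest. Of 64 measured, 58 were in the lowest 25% and 48 in the lowest 10%, with a median level of 3.90 at percentile 4.19. MND1, a recombination factor that works with HOP2, had 3.14 and 2.70, and HOP2 had 3.38 and 3.14. REC114, needed for meiotic double-strand breaks, had 3.38 and 3.00, and SPR28, a septin of sporulation, had 3.22 and 3.25. Of the 64, 2 were in the upper 50%: SGA1, a glucoamylase of sporulation, with 7.99 and 8.05, and SPR6 with 7.56 and 7.57. SGA1 has a second probe set, which had 6.01 and 5.93.

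The very lowest signals came from the mitochondrial chromosome. All 19 of its measured genes were in the lowest 10%, and 10 of the 20 lowest genes of all were among them. COX1, a subunit of cytochrome oxidase, was the highest of them with 4.42 and 3.95. COX2 had 3.20 and 3.47, COB, cytochrome b, 2.88 and 3.16, and OLI1, a subunit of the ATP synthase, 3.01 and 3.28. AI1 to AI4, the genes in COX1 introns, had means between 2.70 and 2.98. The nuclear genes of the same complexes had a median percentile of 84.3, as given above. The kit primes on poly(A) tails, and yeast mitochondrial messages are known to lack them. Whether the labelling reads these RNAs was not tested.

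The other members of the 20 lowest were the nuclear genes MND1, DCI1, COS111 and YPT53, a Rab GTPase of the endocytic pathway, with 2.97 and 3.05 for the last, and 6 nuclear genes without a standard name. YBR013C had 3.01 and 2.72 and YFR057W had 2.89 and 3.05. At this end 18 of 19 neighbouring pairs overlapped, so the order of neighbours is not resolved here. AI4, the lowest gene of this set, had 2.66 and 2.74, and DCI1, the highest of the set, had 3.03 and 3.17. Both were picked as the ends of an order made from these same values. The gap between them was therefore largely fixed by that choice, and whether these genes differ was not tested. No detection call was used, and signal cannot be told apart from background at this end.

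Classes of RNA other than mRNA showed a mixed picture. The 4 ribosomal RNA genes with a probe set stood high, with a median percentile of 93.3 and 3 in the top 10%. The 91 tRNA genes with a probe set had a median percentile of 53.6, near the median gene. The 57 small nucleolar RNA genes had a median percentile of 30.3, with 27 in the lowest 25% and 5 in the top 10%. SNR77 had 10.89 and 10.72 and SNR190 had 3.47 and 3.08. All 4 spliceosomal snRNA genes were in the lowest 25%. TLC1, the RNA of telomerase, had 8.30 and 8.11 at percentile 68.8, above all 11 protein genes of the telomerase and telomere list. These RNAs mostly lack the tails that the kit primes on, and tRNA copies share sequence, so their place on the scale is a place of signals.

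Genes that still have no standard name stood lower than named ones. The 443 nuclear protein-coding genes without a name had a median percentile of 27.5, and 46.7% were in the lowest 25%. The 5024 with a name had a median percentile of 52.2, and 22.5% were in the lowest 25%. Among the highest 10% of genes 5.48% had no name, and among the lowest 10% this was 21.7%.

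Among ranked genes, those near chromosome ends stood lower than the rest. Of the 10 outermost genes at each end of the 16 nuclear chromosomes, 193 of 320 had a probe set of their own. Their median percentile was 26.1, and 90, or 46.6%, were in the lowest 25%. The next 10 genes inward had a median percentile of 48.6, genes 21 to 40 had 52.2 and those further in had 51.0. Of the 193, 52 had no standard name. Outermost genes without a probe set of their own were not ranked. The 13 shared probe sets of flocculins and subtelomeric families had a median level of 8.48, and the 12 of seripauperins 7.67. The median gene had 7.29. Of these 13 and 12, 2 and 1 were at the level of the lowest 25%. How many of the genes they read are outermost genes was not counted. Medians of whole nuclear chromosomes lay between percentiles 45.3 and 54.2. Levels of adjacent genes were barely related, with Spearman's rho of 0.090 across 1302 divergent pairs, 0.071 across 2441 tandem pairs and 0.033 across 1355 convergent pairs. Gene length was also weakly related to level, with a rho of -0.057 across 5467 nuclear protein-coding genes, and median length was lower at both ends of the scale: 974.5 bases among the highest 10% of genes, 1351.5 among the 566 genes just below the median level and 1104 among the lowest 10%. These correlations are across genes of the same 2 arrays and are descriptions.

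How far probe sets of the same gene lie apart can be seen on 315 genes that had more than 1 probe set. The highest and lowest probe sets of such a gene lay a median of 2.71 log2 units apart, and 198 genes, or 62.9%, had a gap over 2. The median difference between the arrays for the same probe sets was 0.186. Genes with 4 or more probe sets, whose median length was 3924 bases, had a median gap of 4.37, and those with 2 had 1.72. Across the 315 genes the gap ran with gene length, with a Spearman's rho of 0.385. How much of the gap belongs to probe binding, to position along the transcript or to the number of probe sets was not tested. FAS2, a subunit of fatty acid synthase, had 8 probe sets between 3.18 and 12.06. PDR5, a drug efflux pump, had 7 between 4.40 and 13.22, and TRA1 had 13 between 3.76 and 8.26. Genes that the array designers covered with several probe sets are not a random choice, and the gap for a gene with 1 probe set was not measured. A difference between 2 single genes of the size of this gap is therefore within what probes of the same gene show.

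**Figure D5:**
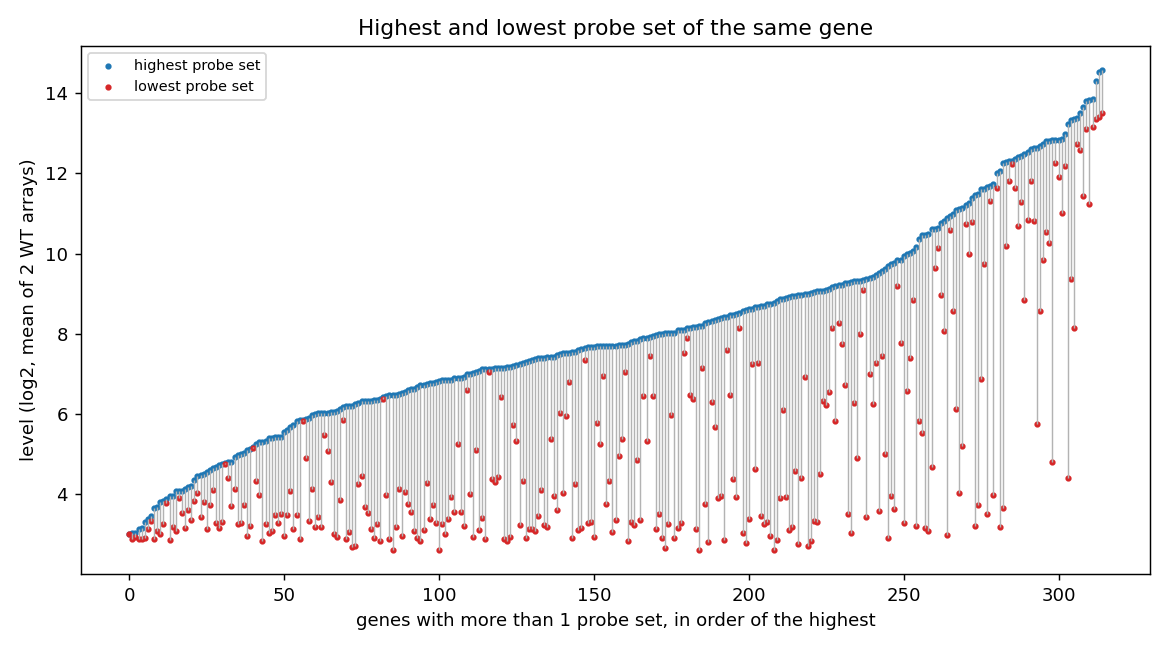
Highest (blue) and lowest (red) probe set of each of the 315 genes with more than 1 probe set (log2 level, mean of the 2 WT arrays), ordered along the horizontal axis by the highest. The vertical lines join probe sets of the same gene and have a median length of 2.71.

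The 2 arrays also differed in small ways that followed gene groups. Over all genes, 54.3% were higher on replicate 2, with a median difference of 0.02. Of the 72 mitochondrial ribosomal protein genes, 62 were higher on replicate 2 (median difference 0.17), as were 29 of 36 nuclear respiratory genes (0.18) and 27 of 32 proteasome genes (0.10). Of the 13 ER folding genes, 3 were higher on replicate 2 (-0.14). The difference between the arrays also ran with gene length, with a rho of -0.308 across 5486 protein-coding genes: 62.8% of the shortest 549 and 38.6% of the longest 549 were higher on replicate 2. The part of length in the group differences was not tested. The differences are small beside the width of the scale, and the medians of all 51 lists moved by at most 3.41 percentile points when either array was used alone.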

How the data were processed

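Levels of wild-type yeast in YPD were taken from 2 arrays of the Affymetrix yeast array used in the series. The deposited values are log2 levels per probe set. RMA and the oligo package are named without versions in the submitters' processing notes, and their settings are not stated there. RMA scales arrays to each other, so array medians were 6.48 and 6.48, and it gives no detection call. Probe sets were named by the platform's gene table: 6504 had 1 gene, 328 several and 2443 none. All 6504 were matched by gene identifier to the RefSeq gene table of the R64 assembly, used only for names, lengths and gene order. Each of 5656 genes was represented by whichever of its probe sets had the highest mean of the 2 arrays, and genes were ranked by that mean (Python 3.11.15, pandas 2.3.3, SciPy 1.17.1). No filter on low values and no test was used. The ranking was tested on simulated data for 5656 genes, where percentiles had a median error of 0.796 points. There 1 probe set of each gene was planted at the true level and any others below it. That error therefore covers noise between arrays and not differences between probes. In the data, the highest and lowest probe sets of 1 gene lay a median of 31.9 percentile points apart.

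Named genes were the 25 highest, the 10 nearest the median, the 20 lowest, the 5 with the largest difference between arrays, and, for each list, its extremes and members that define its role. For the lists and family pairs described, these last were picked with their values in view. The members and all 51 lists were chosen with earlier results of these data known. After values were seen, SIT4, a phosphatase, was taken out of the kinase list. TUP1, a corepressor that binds no DNA, was likewise taken out of the list of gene-specific factors, and some lists were renamed. The number of arrays limits the precision.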

Additional observations from a re-analysis of the deposited data

How the results depend on the processing

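Counts of genes along the scale were recomputed under 10 other settings, of which the restriction to plain probe sets was chosen after seeing the data. Of 180 recomputed counts, 176 stayed within 1.5 times the value given. The 4 that did not rest on fewer genes by construction. Among genes with 1 probe set, 12 mitochondrial-chromosome genes remained to be ranked and all 12 were in the lowest 10%. With plain probe sets, 53 ribosomal protein genes remained, of which 50 were in the top 10%, and 3 tRNA genes, of which 0 were in the upper 50%. Among genes whose highest probe set lay above the median gene, 131 had probe sets over 2 log2 units apart. With either array alone, 547 to 556 of the 566 genes of the top 10% and 543 to 547 of the lowest 10% stayed there. List medians moved by over 10 percentile points in few cases. With the mean of a gene's probe sets, fatty acid and phospholipid synthesis went from 76.2 to 62.9 and the silencing genes from 45.3 to 21.2. With the lowest probe set these became 63.4 and 11.9, auxotrophic markers went from 75.3 to 63.0 and flocculins and subtelomeric families from 26.3 to 6.87. With plain probe sets hexose transport went from 29.3 to 19.0 and the silencing genes to 28.5. Ranking without near-identical proteins was not run, transposon genes were not separated within the protein-coding restriction, and promoter and protein features were not used here. No paired analysis was possible because only 1 group was described. Low levels are limited by the lack of a detection call.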

Other observations

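Probe sets without 1 named gene lie outside the ranking. The 2443 probe sets with no gene in the platform's table had a median level of 4.36, and 1822 of them, or 74.6%, lay at or below the line of the lowest 25% of genes. Nonetheless 186, or 7.61%, reached the level of the top 10%, and the highest had 13.97. The 328 probe sets that read several genes had a median of 8.07, and 140, or 42.7%, reached the level of the top 10%. Their members include the core histones: 6 probe sets that read histone genes alone had levels between 10.39 and 13.63, whereas of the histone genes with a probe set of their own HTB1 had 12.15 and 12.37 and HTZ1, the H2A variant, 8.77 and 8.74. The 12 probe sets that read several seripauperin genes, a subtelomeric family, ran from 2.89 to 8.41.

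The genes that differed most between the 2 arrays were YLR264C-A with 10.79 and 9.82, RIP1 with 8.20 and 9.08, the tRNA gene SUF3 with 5.20 and 6.05, YHR050W-A with 5.40 and 6.21 and YAL037C-A with 4.09 and 3.29. The probe sets chosen for genes were mostly of the plain type, 5390 in number, with a median percentile of 49.4. The 49 of the type marked i had a median percentile of 90.7, and 25 of them were in the top 10%.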
